A study of Mus musculus with 45 samples.

Results

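Gapdh and 9 other glycolytic genes were followed in the reproductive tract of female mice of the outbred CD-1 stock to ask whether Gapdh levels that stood apart in single mice were shared by the rest of the pathway. The 10 members were the rows of the count table with the symbols Hk2, Gpi1, Aldoa, Tpi1, Gapdh, Pgk1, Pgam1, Eno1, Pkm and Ldha, and all 10 were found among 24422 genes. Gapdh was selected on its measured values, which in KO mice 2 and 9 lay far from those of the other mice, so that its levels are given here as a description with no test of genotype. The 9 others were chosen by their place in the pathway.

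The mice were wildtype (WT) or carried a knockout of Plag1 (Plag1KO, here KO), a gene for a zinc finger transcription factor, and there were 7 mice of each genotype. All females were young and sexually mature. They had been superovulated with pregnant mare serum and then human chorionic gonadotropin (hCG), and uteri were removed on the day after hCG. Superovulated females of the study were mated with WT males, except where unfertilized oocytes were collected. Which of these mice had been mated was not given in the sources used here. A piece of whole uterine horn (uterus), the mucosa scraped from an opened horn (endometrium) and the muscle that remained (myometrium) were profiled from each mouse by STRT RNA-seq, which reads the 5′ ends of polyadenylated transcripts and counts tagged molecules. Since every female had received the hormones, the values describe the stimulated tract.

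Glycolysis is the chain of cytosolic enzymes that turns glucose into pyruvate, with a net gain of ATP and NADH. Its genes are used by nearly every cell, and Gapdh is widely taken as a reference gene for that reason. In the uterus, glucose is used by the contracting muscle wall and by the epithelium and stroma of the mucosa.

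The 45 libraries held 264095 to 1232992 counts each, of which 0.784% to 2.95% were ERCC spike-in RNA. They were reduced to 42 samples, 1 for each mouse and tissue, by summing the repeat libraries of KO mouse 13 endometrium and WT mouse 12 myometrium. Levels are given as CPM, which are counts scaled to a common total with TMM factors. A 5′ tag stands for 1 transcript molecule whatever its length, so levels of different genes are on the same scale here without division by length. This holds only where the reads of the genes compared were counted alike, which is not known for reads that match several places. Plag1 was at 0 counts in 35 of 42 samples and at 1 count in 7, of which 5 were KO samples and 2 were WT samples, so that the targeted gene was too rare to check the labels of genotype. Epithelial markers (Krt8, Krt18, Epcam, Cdh1) summed to 652 to 2260 CPM in endometrium and 54.7 to 605 CPM in myometrium, and smooth muscle markers (Acta2, Des, Myh11, Cnn1) to 199 to 8120 CPM and 8507 to 25385 CPM. Neither sum overlapped between the layers. The endometrium of KO mouse 13, at 8120 CPM, and of WT mouse 3, at 7155 CPM, held the most smooth muscle signal.

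Gapdh, the enzyme that oxidizes glyceraldehyde 3-phosphate, lies on the minus strand of chromosome 6 (chr6:125111871-125116485 in NCBIM37, the same assembly as mm9, on which the reads were aligned), and no other annotated gene overlaps it. Tpi1, which makes the substrate of Gapdh, lies 347557 bases away on the same strand and overlaps Spsb2 on the opposite strand. The 250 bases before the start of Gapdh are shown with those of Tpi1, its neighbour in the pathway and on the chromosome, and of Ldha, the gene that differed most clearly between the layers. They are read 5′ to 3′ from RefSeq on GRCm38.p6, a later build than the one the reads were aligned to. Capitals mark ACGTG or GCGTG on either strand (CACGT or CACGC as printed), the core letters bound by hypoxia-inducible and other basic helix-loop-helix factors.
Gapdh, chr6:125165774-125166023, minus strand: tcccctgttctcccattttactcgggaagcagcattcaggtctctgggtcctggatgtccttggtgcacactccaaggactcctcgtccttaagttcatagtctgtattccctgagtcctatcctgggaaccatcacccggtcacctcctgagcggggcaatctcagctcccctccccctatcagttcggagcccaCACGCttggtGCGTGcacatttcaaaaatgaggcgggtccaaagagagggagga
Tpi1, chr6:124814159-124814408, minus strand: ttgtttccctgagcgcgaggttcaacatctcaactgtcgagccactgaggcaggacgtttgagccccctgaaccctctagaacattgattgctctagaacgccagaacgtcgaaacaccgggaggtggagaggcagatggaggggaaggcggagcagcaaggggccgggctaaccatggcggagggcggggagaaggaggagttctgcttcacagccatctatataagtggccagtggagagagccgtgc
Ldha, chr7:46845554-46845803, plus strand: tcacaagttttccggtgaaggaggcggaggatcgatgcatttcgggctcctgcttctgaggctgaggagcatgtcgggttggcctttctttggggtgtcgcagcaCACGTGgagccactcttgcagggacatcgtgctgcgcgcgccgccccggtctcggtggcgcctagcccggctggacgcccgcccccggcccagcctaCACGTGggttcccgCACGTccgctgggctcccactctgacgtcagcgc
These letters occurred 2 times before Gapdh and 5 times before the Ldha start shown, where CACGTG was counted on each strand and so more than once, and 0 times before Tpi1. A further Ldha promoter, chr7:46846832-46847081, is not shown and held 1 match. They were in 12 of the 16 promoters listed for the 10 members and in 38.6% of all 32851 promoters of the same length. GGGCGG, the letters of a GC box, was in 10 of 16 against 32.7% of all promoters, and TATAAA in 0 of 16 against 12.4%. The 16 promoters held 50.4% to 71.2% of G and C, against a median of 52.4% over all promoters, and some windows of Eno1 and of Aldoa overlap. These shares are therefore not counts of independent promoters, and the part of base content in them was not tested. Such matches are descriptions of sequence and not of binding.

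Gapdh was at 2 separate levels among the 14 mice. In KO mouse 2 it stood at 486 CPM in uterus, 631 CPM in endometrium and 666 CPM in myometrium, from 491, 693 and 428 counts. In KO mouse 9 it stood at 343, 426 and 696 CPM, from 211, 234 and 213 counts. Both mice were the highest of 14 in all 3 tissues.

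In the 7 WT mice, Gapdh had a lowest, median and highest level of 10.9, 17.5 and 25.5 CPM in uterus, 14.0, 21.6 and 43.0 CPM in endometrium and 11.6, 14.5 and 29.6 CPM in myometrium. The other 5 KO mice, which are mice 4, 6, 11, 13 and 14 in this order, had 13.4, 24.9, 10.6, 15.1 and 34.1 CPM in uterus, 26.7, 30.3, 18, 33.1 and 29.0 CPM in endometrium and 14.9, 25.4, 32.3, 19.7 and 36.3 CPM in myometrium. These 5 KO mice overlapped with the WT mice in every tissue.

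**Figure D1:**
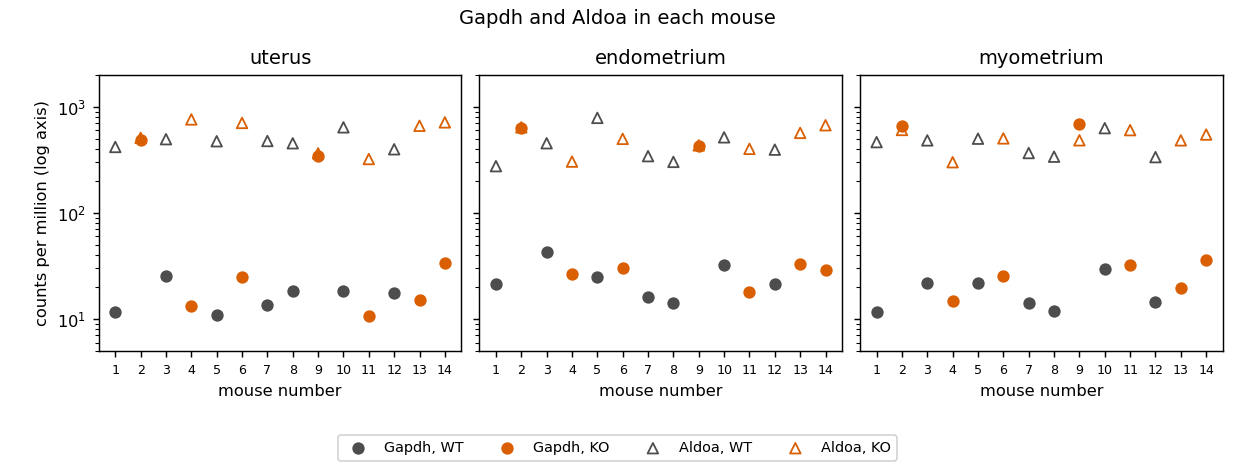
Level of Gapdh (filled circles) and Aldoa (open triangles) in CPM on a log axis against mouse number, with 1 panel per tissue, WT in grey and KO in orange. Gapdh in KO mice 2 and 9 lies at 343 to 696 CPM, level with Aldoa, and in the other 12 mice at 10.6 to 43.0 CPM.

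The other 12 mice had a median of 16.3 CPM for uterus, 25.9 CPM for endometrium and 20.7 CPM for myometrium. Against these medians Gapdh was 29.8-, 24.3- and 32.2-fold higher in mouse 2. In mouse 9 it was 21.0-, 16.4- and 33.6-fold higher. The lower of the pair exceeded the highest of the other 12 mice by 3.23, 3.23 and 4.10 on the log2 scale in uterus, endometrium and myometrium. The difference between these mice and the rest was thus of the same order in whole horn, mucosa and muscle.

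Mouse 2 was in plate rows A to C and mouse 9 in rows D to F, so that the high values were not confined to 1 block of the plate. The myometrium of mouse 9, with 309987 gene counts, was the shallowest of its tissue, while the 638118 counts of mouse 2 lay inside the range of the other 12 mice. Of 36 sums of markers for epithelium, smooth muscle, skeletal muscle, red cells, leukocytes and adipocytes in these mice (6 lists, 3 tissues, 2 mice), 35 lay inside the range of the other 12 mice. The exception was the leukocyte sum of mouse 9 in myometrium, at 337 CPM against at most 280 CPM. The adipocyte sums of both mice were 0 in every tissue, and of the red cell markers only Alas2 was detected. For these lists the range of the other 12 mice began at 0, so that they could only have shown a rise. No share over other gene lists is given for sums inside the range, so that the 35 do not show an alike tissue make-up. In bulk tissue, more cells of a type and more RNA per cell cannot be told apart.

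The 6 groups were ordered by their median Gapdh level as WT myometrium (14.5 CPM), WT uterus (17.5), WT endometrium (21.6), KO uterus (24.9), KO endometrium (30.3) and KO myometrium (32.3). No neighbours in this order were separated, since their ranges overlapped. The KO means were set by mice 2 and 9, as in myometrium, where the mean was 213 CPM ± 320 (SD, n = 7) against 17.9 ± 6.70 in WT (SD, n = 7).

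In the 12 mice without high values, Gapdh was among the members with the fewest counted 5′ tags, which need not be the rarest transcripts. By its median it stood at place 4447 of 14822 genes in uterus, 3277 in endometrium and 3890 in myometrium. Aldoa (fructose-bisphosphate aldolase) stood at places 297, 276 and 250, and Ldha (lactate dehydrogenase A) at 294, 278 and 488. Hk2, the hexokinase that is induced by insulin and hypoxia, was the only member ranked lower than Gapdh, at places 4496, 4641 and 7780.

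How reads that match the genome at several places were handled was not stated, and this bears on Gapdh. The first 50 transcript bases were compared with the genome, and 1 of the 3 annotated Gapdh starts had 77 near-identical copies elsewhere (at least 95% identity over at least 90% of the bases), while the other 2 had none. Of the 9 others, Aldoa and Eno1 had copies for 1 start each, with at most 2 copies, Gpi1 had 1 copy, and the rest had none. How far such copies set the low or the high Gapdh counts was not tested.

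None of the 9 other members followed Gapdh in mice 2 and 9. Of their 54 values (9 genes, 3 tissues, 2 mice), 48 lay inside the range of the other 12 mice, 5 lay below it and 1 above it. The fold over the median of the other 12 mice ran from 0.413 to 2.62 with a median of 0.978, and 26 of 54 values were above 1. This balance differed by tissue. Summed over the 9 genes, mice 2 and 9 stood at 1813 and 1291 CPM in uterus, where the median of the other 12 was 2060 CPM. In endometrium they stood at 2264 and 1741 CPM (median 1851 CPM) and in myometrium at 1838 and 1687 CPM (median 1502 CPM). The 5 values below the range were all of mouse 9 in uterus, and the 1 above it was of mouse 9 in myometrium. In 0 of 27 combinations of gene and tissue were mice 2 and 9 the highest 2. Of all 14822 genes, only 2.04% (uterus), 0.938% (endometrium) and 1.01% (myometrium) had these mice as the highest 2. The count of 0 is therefore near the background and does not set the 9 genes apart. For values inside the range, no share over all genes is given here. The contrast with Gapdh rests on the folds, at most 2.62 for the 9 genes and at least 16.4 for Gapdh.

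For the steps before Gapdh, Hk2, which phosphorylates glucose, had 8.90 CPM in the uterus of mouse 2 and 11.4 CPM in that of mouse 9, against 3.37 to 29.7 CPM (median 16.0) in the other 12. In endometrium Hk2 stood at 16.4 CPM in both mice (median of the other 12 at 16.1 CPM). In myometrium it stood at 7.78 and 13.1 CPM (median 6.57 CPM). Gpi1, glucose-6-phosphate isomerase, stood at 315 and 102 CPM in uterus, against 149 to 332 CPM (median 248). The value of mouse 9 was the lowest of 14, and in endometrium (197 and 215 CPM) and myometrium (243 and 212 CPM) both mice lay inside the range of the others. Aldoa, which splits the 6-carbon sugar, stood at 509 and 364 CPM in uterus, 641 and 433 CPM in endometrium and 605 and 484 CPM in myometrium. The other 12 mice held 322 to 761, 276 to 787 and 301 to 629 CPM, so that neither mouse left the range.

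Tpi1, triose-phosphate isomerase, stood at 126 and 78.0 CPM in uterus, against 98.9 to 207 CPM (median 159) in the other 12 mice. Mouse 9 was again the lowest. In endometrium (151 and 92.8 CPM) and myometrium (93.4 and 88.2 CPM) the medians of the other 12 were 158 and 105 CPM. The gene that precedes Gapdh in the pathway and lies near it on chromosome 6 was thus under the median in both mice and all 3 tissues.

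For the steps after Gapdh, Pgk1, which passes a phosphate to ADP, stood at 162 and 164 CPM in uterus, 188 and 140 CPM in endometrium and 143 and 131 CPM in myometrium. The medians of the other 12 mice were 196, 164 and 131 CPM. Pgam1, phosphoglycerate mutase, stood at 73.2 and 42.3 CPM in uterus, where the other 12 held 49.7 to 128 CPM. Pkm, pyruvate kinase, stood at 130 and 89.4 CPM there, against 102 to 192 CPM. For both genes mouse 9 was the lowest of 14 in uterus and inside the range in the layers. Pgam1 stood at 92.8 and 41.8 CPM in endometrium (median of the other 12 at 66.1 CPM) and at 66.9 and 42.5 CPM in myometrium (median 45.4 CPM). Pkm stood at 173 and 164 CPM in endometrium (median 183 CPM) and at 196 and 229 CPM in myometrium (median 162 CPM).

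Eno1, the enolase of most tissues, left the range of the other mice on both sides. In uterus it stood at 191 and 132 CPM, against 144 to 470 CPM (median 287) in the other 12 mice. In myometrium it stood at 219 and 330 CPM, against 101 to 277 CPM (median 126). The 330 CPM of mouse 9 was 2.62-fold over that median and was the only value of the 9 genes above the range, against 33.6-fold for Gapdh in the same sample.

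Ldha, which turns pyruvate into lactate, stood at 298 and 307 CPM in uterus, against 277 to 699 CPM (median 490). In endometrium (516 and 457 CPM) and myometrium (263 and 157 CPM) it lay inside the range as well. Averaged on the log2 scale, the 9 genes placed mouse 2 at places 11, 2 and 2 of 14 in uterus, endometrium and myometrium and mouse 9 at places 14, 11 and 4. High Gapdh thus went with both low and high averages of the other genes.

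**Figure D2:**
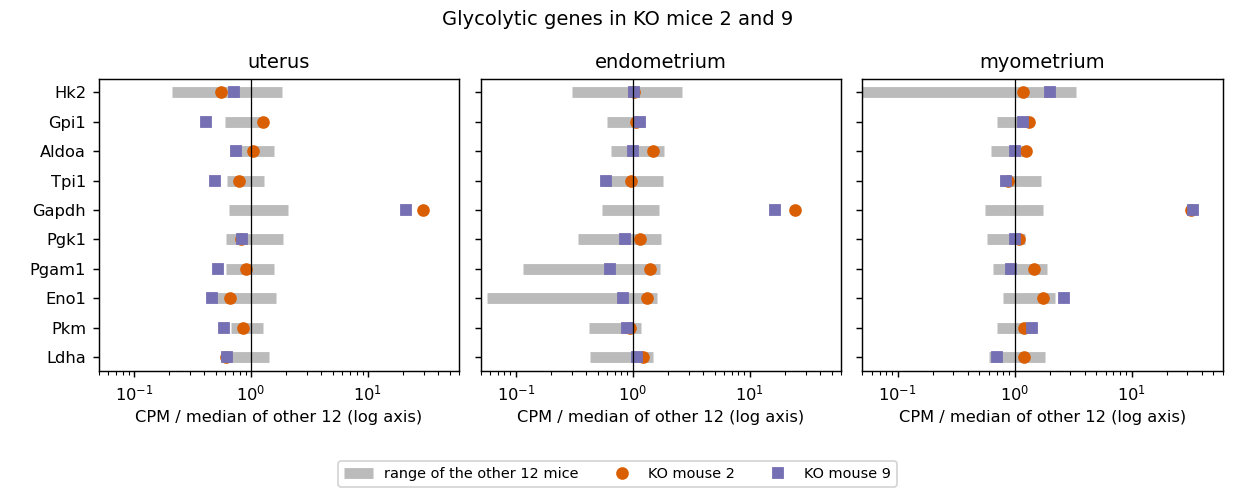
Level of each member in KO mouse 2 (circle) and KO mouse 9 (square), divided by the median of the other 12 mice, on a log axis with 1 panel per tissue, with the genes in pathway order. Grey bars are the range of the other 12 mice, drawn no lower than 0.05, which shortens the bar of Hk2 in myometrium, where the lowest mice had 0 counts. Gapdh lies at 16.4 to 33.6 and the 9 other genes at 0.413 to 2.62.

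The search was widened to every gene that passed the filter on low counts (at least 1 CPM in at least 5 samples). A gene was said to lead in a tissue where the lower of mice 2 and 9 lay above the highest of the other 12 mice. Of 14822 genes, 303 led in uterus (2.04%), 139 in endometrium (0.938%) and 149 in myometrium (1.01%), and 1 led in all 3 tissues, which was Gapdh, the gene chosen for this pattern. The next genes by their smallest difference were Cox7a1, a subunit of cytochrome c oxidase of muscle, at -0.25 on the log2 scale, and Rnf4, a ubiquitin ligase, at -0.28, neither of which led. There were 0 genes for which mice 2 and 9 were the lowest pair in all 3 tissues.

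Of 23 further genes of glycolysis and glucose or lactate transport, 17 passed the filter, and 0 led in any tissue. Gapdhs, the form of the enzyme found in sperm, was among the 6 that did not pass. Of 8 targets of hypoxia-inducible factors outside glycolysis, 0 led, and the most abundant of them, Ndrg1, stood at 73.2 and 76.4 CPM in uterus against a median of 57.4 CPM and at 43.6 and 26.1 CPM in myometrium against 67.6 CPM. Summed over the 8 targets, mice 2 and 9 were the lowest of 14 in myometrium, at 91.8 and 85.0 CPM against 105 to 204 CPM in the other 12, and inside the range in uterus and endometrium. The part of this in the levels of Gapdh was not tested. Of 10 further reference genes, 0 led. Over all 14822 genes, 2.04% led in uterus, 0.938% in endometrium and 1.01% in myometrium. The counts of 0 for these lists are therefore near the background and do not set the lists apart. Actb, cytoplasmic actin, stood at 780 and 961 CPM in uterus, against 751 to 1379 CPM in the other 12 mice. The leukocyte gene Ptprc led in uterus alone, at 40.5 and 40.6 CPM against at most 40.2 CPM.

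The nearest 3 genes on each side of Gapdh on chromosome 6 did not lead either, and 5 of these 6 passed the filter. This too is near the share over all genes and does not set them apart. Chd4, a chromatin remodeller and the most abundant of them, stood at 201 and 167 CPM in uterus, 267 and 235 CPM in endometrium and 331 and 216 CPM in myometrium. The other 12 mice held 127 to 282, 149 to 261 and 170 to 294 CPM, so that mouse 2 was the highest of 14 in both layers while mouse 9 lay inside the range. The sum of the 6 genes in myometrium was likewise highest in mouse 2, at 454 CPM against at most 406 CPM in the other 12, with mouse 9 inside the range at 360 CPM.

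Across the 12 mice without high values, no relation of Gapdh to another member passed the test. The 27 correlations of log2 CPM (9 genes, 3 tissues) had median Pearson r values of 0.18, -0.05 and 0.36 for uterus, endometrium and myometrium, with 0 of 27 adjusted p under 0.05 in permutation tests. KO mice 2 and 9 formed a cluster of their own and were left out. Gapdh rested on 5 to 80 counts in these 36 samples, which limits the correlations it could show.

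The strongest relation was that of Gapdh with Aldoa in myometrium, at r = 0.81 and rho = 0.82 over 12 mice (adjusted p = 0.0502 and 0.0535, permutation test, two-sided, 27 relations). Without the 2 mice farthest from the median of Gapdh, r was 0.94. Within the 7 mice of plate rows A to C, r was 0.64 and rho 0.64 (adjusted p = 0.957 and 1, exact permutation test), and rows D to F held only 5 such mice. In uterus and endometrium, r of the same pair was 0.51 and 0.53. In myometrium the median r of Gapdh with the 9 genes rose from 0.36 to 0.70 without the 2 farthest mice.

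The 9 other genes were compared with each other in the same 12 mice, after the data were seen. Over 36 pairs per tissue, uterus gave a median r of 0.38, endometrium of 0.53 and myometrium of 0.58, and 18 of 108 pairs passed by r and 8 by rho in permutation tests, all of them positive. Ldha and Tpi1 in endometrium had r = 0.88 and rho = 0.92 (adjusted p = 0.0054 and 0.00432, permutation test, 12 mice), and r was 0.81 without the 2 farthest mice. Pgam1 and Gpi1 in myometrium had r = 0.88 and rho = 0.92 (adjusted p = 0.00945 and 0.00432, permutation test), and r was 0.82 without them. With the 2 farthest mice left out of each relation, the median r was 0.35, 0.30 and 0.48 for these pairs in uterus, endometrium and myometrium, and 0.30, 0.20 and 0.70 for Gapdh with the 9, so that in myometrium Gapdh then had the higher median. The difference between the medians for Gapdh and for the other pairs was not tested.

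Leaving out WT mouse 5 changed the relation in endometrium. Its endometrium, with 299973 gene counts, was the lowest of 14 for Gpi1, Tpi1, Pgk1, Pgam1, Eno1, Pkm and Ldha and the highest for Aldoa. Without this mouse, 7 of 108 pairs passed by r, 1 of them in endometrium, where the median r was 0.28. Within plate rows A to C (7 mice), 0 of 108 passed and the median r was 0.51, 0.68 and 0.53 in uterus, endometrium and myometrium. With spike-in scaling, 37 of 108 pairs and 2 of the 27 relations of Gapdh passed.

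**Figure D3:**
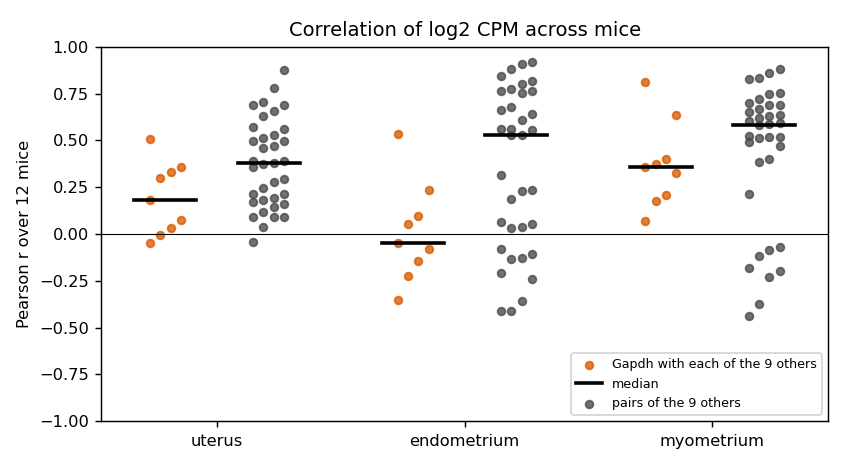
Pearson r of log2 CPM over the 12 mice other than KO mice 2 and 9, by tissue, for Gapdh with each of the 9 other members (orange, 9 points per tissue) and for the pairs of those 9 (grey, 36 points per tissue). Bars are medians, at 0.18, -0.05 and 0.36 for Gapdh and 0.38, 0.53 and 0.58 for the other pairs in uterus, endometrium and myometrium.

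Between genotypes, no change of the 9 other members was detected in any tissue. With edgeR's quasi-likelihood test, 0 of 9 passed in uterus, endometrium and myometrium, where 0% of 12959, 0% of 13004 and 0% of 12991 genes passed. Before adjustment, p was under 0.05 for 731 genes of the uterus (5.64%), 676 of the endometrium (5.2%) and 548 of the myometrium (4.22%), and of the 9 these held Pgk1 in uterus and Hk2 in myometrium. DESeq2 called 0, 1 and 0 genes over the whole table and 0 of the 9 in each tissue.

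The log2 fold change (KO over WT) was positive for 7 of the 9 genes in uterus, 8 in endometrium and 6 in myometrium. Its median was 0.16, 0.10 and 0.02 for uterus, endometrium and myometrium, beside -0.05, 0.02 and -0.03 for all genes tested. With spike-in scaling the uterus median was -0.17, beside -0.37 for all genes, so that the sign depended on the scaling, with the 9 above the median of all genes in both. Standard errors of single genes had medians of 0.22, 0.28 and 0.20.

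Pgk1 in uterus had a lowest, median and highest level of 121, 178 and 209 CPM in WT and 162, 226 and 369 CPM in KO mice, and the groups overlapped. Its log2 fold change was 0.55 ± 0.21 (SE, n = 7 and 7; adjusted p = 0.759, edgeR). Hk2 in myometrium stood at 0, 3.94 and 12.2 CPM in WT and at 4.95, 11.8 and 22.0 CPM in KO mice, from 0 to 8 and 3 to 15 counts. Its log2 fold change was 1.36 ± 0.54 (SE, n = 7 and 7; adjusted p = 0.9999, edgeR), and the groups overlapped as well.

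Between the layers, 3 calls were made in the fit without a mouse block. In WT mice, Hk2 was higher in endometrium than in myometrium, and in KO mice Ldha and Tpi1 were higher in endometrium. No member was higher in myometrium. In edgeR's test, 1 of 10 members passed in WT mice, where 13.2% of 13227 genes passed (6.81% higher and 6.39% lower in endometrium), and 2 of 10 in KO mice, where 19.3% of 12969 genes passed (10.6% higher and 8.71% lower). These shares are near the background.

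Ldha in KO mice had a lowest, median and highest level of 242, 516 and 625 CPM in endometrium and of 150, 172 and 405 CPM in myometrium. The means were 477 ± 125 and 221 ± 91.7 CPM (SD, n = 7 each), with some overlap between the layers. Its log2 fold change was 1.12 ± 0.24 (SE; adjusted p = 0.00162, edgeR). In WT mice Ldha stood at 183, 408 and 600 CPM in endometrium and 132, 225 and 363 CPM in myometrium, with a log2 fold change of 0.73 ± 0.27 (SE; adjusted p = 0.0725, edgeR). With the mouse as a block, since both layers came from the same animals, the WT value was 0.75 with an adjusted p of 0.0289, and without WT mouse 5 it was 0.97 with an adjusted p of 0.00733.

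Hk2 in WT mice had levels of 4.83, 15.6 and 42.5 CPM in endometrium and of 0, 3.94 and 12.2 CPM in myometrium, from 4 to 16 and 0 to 8 counts. Its log2 fold change was 1.95 ± 0.57 (SE, n = 7 mice; adjusted p = 0.0203, edgeR). Without WT mouse 1, whose endometrium was the highest of 14 at 42.5 CPM, it was 1.57 and no longer passed (adjusted p = 0.0902). In KO mice the log2 fold change was 0.66 ± 0.37 (SE; adjusted p = 0.243, edgeR).

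Tpi1 in KO mice had levels of 92.8, 151 and 266 CPM in endometrium and of 88.2, 105 and 120 CPM in myometrium. Its log2 fold change was 0.67 ± 0.22 (SE, n = 7 mice; adjusted p = 0.0312, edgeR). The call was lost on leaving out KO mouse 2, 4, 6, 11, 13 or 14 in turn, with adjusted p from 0.051 to 0.11, and was kept without mouse 9. In WT mice it was 0.51 ± 0.26 (SE; adjusted p = 0.225, edgeR).

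The remaining members gave smaller differences. Aldoa, Gpi1 and Pkm lay within 0.10 of 0 in both genotypes, and Pgk1, Pgam1 and Eno1 at 0.33 to 0.44, with none past the threshold. Gapdh gave 0.46 ± 0.33 in WT (SE; adjusted p = 0.422, edgeR) and -0.26 ± 0.86 in KO mice (SE; adjusted p = 0.877), where the spread came from mice 2 and 9. The median of the 10 members was 0.38 in WT and 0.37 in KO mice, beside 0.01 and 0.08 for all genes tested.

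These layer values moved with the scaling. With spike-in scaling, the median of all genes shifted to 0.21 in WT and 0.58 in KO mice, and the calls over all genes went from 901 higher and 845 lower to 953 and 464 in WT and from 1378 and 1130 to 2630 and 419 in KO mice. In KO mice 5 of 10 members then passed, at 1.57 for Ldha, 1.20 for Hk2, 1.15 for Tpi1, 0.93 for Eno1 and 0.92 for Pgk1, which are to be read beside the shifted median of 0.58.

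No member passed the test for a difference between genotypes in its layer difference. In the genotype by layer interaction, fitted without a mouse block, 0 of 10 members and 0% of 14314 genes passed in edgeR's test. Before adjustment, 658 genes (4.6%) had p under 0.05, with 0 members among them. With the mouse as a block, 10 genes passed, and 0 of 10 members. The interaction was -1.28 ± 0.69 for Hk2 (SE; adjusted p = 0.993, edgeR), 0.40 ± 0.36 for Ldha (adjusted p = 0.993) and 0.16 ± 0.33 for Tpi1 (adjusted p = 0.999). The difference in calls between WT and KO mice was thus not matched by an interaction past the threshold. For Hk2 and Ldha the estimate was larger than its standard error, so the genotypes are not shown to be alike.

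**Figure D4:**
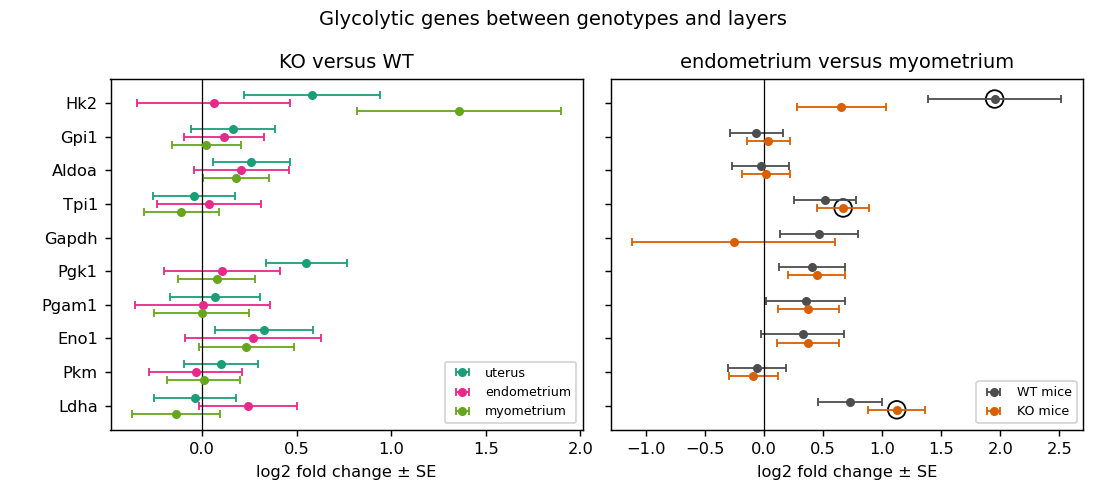
Log2 fold change with its standard error for each member, as KO over WT in 3 tissues (left, Gapdh left out) and as endometrium over myometrium in WT and KO mice (right), with 7 mice per group, in the fit without a mouse block. Circled points passed the threshold, which are Hk2 in WT mice and Ldha and Tpi1 in KO mice, all higher in endometrium.

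Glucose transporters were among the further genes of glycolysis and transport that differed between the layers. Of 16 tested, 3 were higher and 2 lower in endometrium in WT mice, where 6.81% of all genes were higher and 6.39% lower. In KO mice 4 were higher and 1 lower, beside 10.6% and 8.71% of all genes. Slc2a1, the transporter of most cells, was higher by 1.96 ± 0.37 in WT and 1.57 ± 0.43 in KO mice (log2, SE; adjusted p = 0.00053 and 0.0111, edgeR), and Slc2a3 by 1.99 ± 0.67 and 1.89 ± 0.61 (adjusted p = 0.0472 and 0.0294). Slc2a4, the insulin-responsive transporter of muscle and fat, was lower in endometrium, at -3.22 ± 0.53 and -3.16 ± 0.48 (adjusted p = 0.000136 and 5.15e-05). In the 12 mice other than KO mice 2 and 9, Slc2a3 had a median of 1.84 CPM in myometrium. Slc2a4 had a median of 1.40 CPM in endometrium in the same mice, so that both differences rest on few counts in the lower layer.

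Aldoc, the aldolase of brain, was higher in endometrium at 2.79 ± 0.85 in WT and 3.31 ± 0.82 in KO mice (log2, SE; adjusted p = 0.028 and 0.00537, edgeR), while Aldoa showed no such difference. Pfkm, muscle phosphofructokinase, was lower in endometrium in WT mice at -1.32 ± 0.43 (adjusted p = 0.0383), and Bpgm, which makes 2,3-bisphosphoglycerate, was higher in KO mice at 1.10 ± 0.37 (adjusted p = 0.0363). Aldoc itself was near the floor in the 12 mice other than KO mice 2 and 9. It had a median of 5.42 CPM (0 to 67.7) in endometrium and 0.45 CPM (0 to 5.91) in myometrium, so that its difference rests on few counts. Between genotypes 0 of the further genes of glycolysis and transport passed in any tissue.

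Of the 8 hypoxia targets, 0 passed in any comparison. Among reference genes Actb was lower in endometrium, by -0.72 ± 0.21 in WT and -0.93 ± 0.20 in KO mice (log2, SE; adjusted p = 0.0186 and 0.00155, edgeR), and Gusb higher in KO mice at 0.80 ± 0.27 (adjusted p = 0.0378). Of the genes flanking Gapdh, Ncapd2 was higher in endometrium in both genotypes, at 2.39 ± 0.59 and 2.08 ± 0.63 (adjusted p = 0.00615 and 0.0212). Its median in the 12 mice other than KO mice 2 and 9 was 12.3 CPM in endometrium and 1.88 CPM in myometrium, near the floor. The epithelial and smooth muscle sums given above also separated the layers, and their part in these differences was not tested.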

How the data were processed

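The deposited file was 1 table of unscaled counts that the authors made for 24422 genes and 92 ERCC spike-ins in 45 libraries from 1 pool. Per the methods of the study, reads sharing a molecular identifier were joined, aligned to mm9 with TopHat and counted over UCSC gene models with Homer, while the submitters' processing notes list HTSeq; versions, strand and the handling of multiple matches were not given in the sources used here. The members and lists were chosen with earlier results of these data known.

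Repeat libraries of a mouse were summed. Each fit kept the genes that reached 1 CPM in 5 or more of its samples, left out the spike-ins and used the quasi-likelihood F test of edgeR 4.0.16 (R 4.3.3) with TMM factors, with Benjamini-Hochberg adjustment over all genes tested and a threshold of 0.05, after the script was tested on simulated data. KO was compared with WT within each tissue, and endometrium with myometrium within each genotype. Levels were TMM-scaled CPM over the 42 samples, with a prior count of 2 on the log2 scale. Correlations used permutation tests with 100000 resamples (exact for 7 mice). Transcript starts were compared with NCBIM37 by BLAST 2.17.0.

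Alternatives were relative log expression factors, spike-in scaling, DESeq2 1.42.0, no filter, a filter at 10 CPM, 1 library per mouse, plate rows as a covariate, a prior count of 0.5, the mouse as a block, and leaving out each mouse or mice 2 and 9. The correlations of Gapdh were also run in the 7 WT mice alone. The mouse number in the labels pairs the layers of an animal. Same-mouse deviations from the group means correlated across genes at a median r of 0.10 in WT and 0.11 in KO mice, against -0.01 and -0.03 for different mice.

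All 10 members were named. Of the lists, genes past a test were named and otherwise up to 2 of the most abundant. Genes most like Gapdh were those leading in mice 2 and 9 in all 3 tissues, of which there were none besides Gapdh; Cox7a1, Rnf4, Ptprc and Gapdhs were named after their values were seen. P-values measure the spread between mice of 1 experiment, and the total counts per library set the counting error.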

Additional observations from a re-analysis of the deposited data

Results flagged for a closer look

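In 60 groups of 7 mice (10 members, 6 groups), the gap of an extreme mouse to its nearest neighbour was compared with Dixon's 95% critical value, which about 1 in 20 groups exceeds by chance. It was exceeded in 7 groups, each time by a low mouse, and Gapdh in KO mice was not among them, where 2 mice were high together.

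WT mouse 5 accounted for 4 of the 7. Its endometrium held 12.6 CPM of Eno1, 7.54 CPM of Pgam1 and 77.9 CPM of Pkm, against at least 170, 40.4 and 146 CPM in the other 6 WT mice, from 5, 3 and 31 counts, and its uterus held 3.37 CPM of Hk2, against at least 10.8 CPM. KO mouse 4 accounted for 2, with 301 CPM of Aldoa and 79.3 CPM of Pgk1 in myometrium, against at least 483 and 116 CPM. The uterus of WT mouse 10 held 149 CPM of Gpi1, against at least 226 CPM.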

How the results depend on the processing

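The 57 combinations of member and comparison, which held Gapdh in the layer and interaction fits alone, were fitted 1134 times under the alternatives. Of 47 fits of the 3 combinations past the threshold, 9 lost the call, and of 1087 fits of the others, 6 gained one. The direction was the other one in 165 fits, with 0 of these past the threshold in either fit. The number of the 9 members other than Gapdh called between genotypes, or in the interaction, stayed at 0 in every fit run. Between the layers in WT mice it was 2 with DESeq2 and 2 with the mouse as replicate block (Ldha added), and from 0 to 2 on leaving out a mouse, with 0 without mouse 1 and 2 without mouse 5. In KO mice it was 5 with spike-in scaling, 1 with 1 library per mouse, 1 without mice 2 and 9, and from 1 to 2 on leaving out a mouse. The replicate block changed no other call of a member, and the causes of these changes were not tested, beyond the smaller number of mice. The distance of Gapdh in mice 2 and 9 from the other 12 mice was 2.70 in endometrium and 3.23 in myometrium with spike-in scaling, and moved by less than the spread of the 12 mice under the other alternatives. Of 27 relations of Gapdh, 2 passed with spike-in scaling and 0 in the 7 WT mice alone. Of 108 pairs of the other genes, chosen after seeing the data, 37 passed with spike-in scaling, 7 without WT mouse 5 and 0 within plate rows A to C. Gapdh in the 12 mice rested on 5 to 80 counts and Hk2 on 0 to 77, which limits what their differences can show.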
